A study of Arabidopsis thaliana with 2 samples.

Results

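A block of 7 neighbouring small genes on Arabidopsis thaliana chromosome 1 was followed in rosettes of a PBL19 C3A line and of wild type plants. The members are AT1G65481, AT1G65483, AT1G65484, AT1G65486, AT1G65490, AT1G65500 and AT1G65510, 7 of the 23147 genes listed in at least 1 of the 2 deposited tables. They were picked by their identifiers, because they lie together and because their levels in these same libraries were higher in the C3A line. Their difference between the libraries is therefore a description and was not tested. The transgenic material was a pbl19 null mutant in the Col-0 background carrying a PBL19 transgene with alanine in place of cysteine 3 (C3A), driven by the PBL19 promoter and tagged with GFP and HA. The other library came from wild type Col-0 plants. Both were untreated rosettes at 28 days of age, sequenced as mRNA, with 1 library per genotype. The sources used here did not give the number of plants per library or of transgenic lines, and a line with the unchanged transgene was not analysed here. Effects of the null allele, of the C3A change, of the tags and of the raised PBL19 level cannot be told apart. The C3A library held 12001808 estimated counts and the wild type library 11937705.

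Plant genomes hold many short genes for small proteins with no assigned function. Many of these proteins begin with a hydrophobic stretch that directs them into the secretory pathway, and some are precursors of peptides that receptor kinases at the cell surface perceive during immune responses. PBL19 belongs to the receptor-like cytoplasmic kinases, which relay signals from such receptors. RefSeq describes the product of each of the 7 genes as an uncharacterized protein, so no role is given for any member here.

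The block spans 19346 bases of chromosome 1, from 24340736 to 24360081 on TAIR10.1. AT1G65481 lies on the minus strand at 24340736 to 24341919, and the other 6 lie on the plus strand. AT1G65483 lies at 24342483 to 24344158, AT1G65484 at 24347750 to 24348619, AT1G65486 at 24349399 to 24350524, AT1G65490 at 24354646 to 24355490, AT1G65500 at 24357749 to 24358732 and AT1G65510 at 24359328 to 24360081. AT1G65481 and AT1G65483 point away from each other, with 563 bases between their annotated 5′ ends. The gap between consecutive members was shortest there and widest, at 4121 bases, between AT1G65486 and AT1G65490. None of the 7 overlaps another annotated gene. The reference places 3 other annotated features inside the block, the pseudogene AT1G65485 and the RNA genes AT1G08763 and AT1G09775, and none of them was listed in either table.

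The label of small genes held for all 7, since the first annotated transcript of each encodes 76 to 88 residues. Each of these transcripts has 2 exons, and in each the intron interrupts the coding sequence. In 6 members the intron follows the first base of a codon, after 106 to 118 coding bases, while in AT1G65483 it falls between codons, after 153 coding bases. Among all 4302 reference genes with 2 coding exons, 37.9% have the intron in the position that the 6 share. The same 6 proteins have their most hydrophobic stretch of 15 residues near the start, beginning at residue 7 to 9, with a mean Kyte-Doolittle hydropathy of 2.71 to 2.99. In AT1G65483 that stretch begins at residue 35 and has a mean of 1.12.

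By sequence the members fall into a core and 3 outlying genes. AT1G65486, AT1G65490 and AT1G65500 encode proteins that are 67.4% to 73.3% identical to each other in global alignments. AT1G65510 was 46.7% to 56.7% identical to those 3. AT1G65484 was 29.0% to 34.9% identical to the core 4 genes and was joined to the block by a match to AT1G65510 (blastp E value 2.09e-05). AT1G65481 and AT1G65483 had no match to any other reference protein at an E value of 1e-03 or below. These identities come from the reference coding sequences, translated for the comparison.

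**Figure D1:**
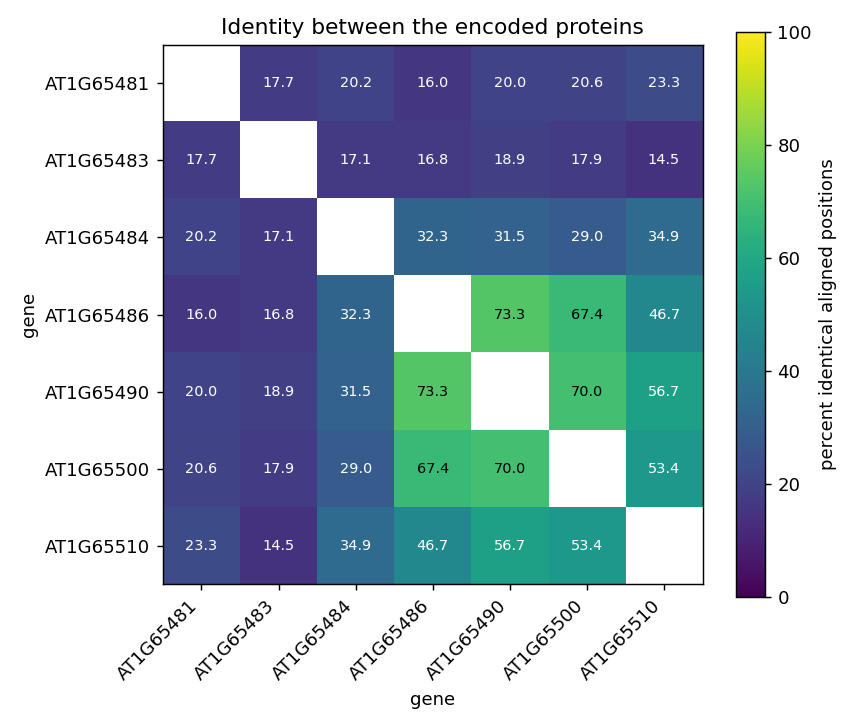
Percent of identical aligned positions between the proteins encoded by the 7 genes, with the genes on both axes in order along chromosome 1. AT1G65486, AT1G65490 and AT1G65500 share 67.4% to 73.3%, while AT1G65481 and AT1G65483 stay between 14.5% and 23.3% with every other member.

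The coding part of the first exon is shown for the core genes because it carries the hydrophobic start of the protein. The sequences are read from TAIR10.1 on the plus strand of chromosome 1, at chr1:24349523-24349631, chr1:24354792-24354900, chr1:24357887-24357995 and chr1:24359456-24359567. Capitals mark the bases that are the same in all 4 genes, 74 of 112 aligned columns or 66.1%.
AT1G65486: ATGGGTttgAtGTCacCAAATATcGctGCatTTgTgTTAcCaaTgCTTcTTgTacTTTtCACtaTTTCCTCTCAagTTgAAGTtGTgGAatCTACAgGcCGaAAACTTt
AT1G65490: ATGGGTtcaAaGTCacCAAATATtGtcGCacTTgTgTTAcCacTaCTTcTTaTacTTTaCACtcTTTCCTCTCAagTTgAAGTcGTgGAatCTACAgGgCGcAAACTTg
AT1G65500: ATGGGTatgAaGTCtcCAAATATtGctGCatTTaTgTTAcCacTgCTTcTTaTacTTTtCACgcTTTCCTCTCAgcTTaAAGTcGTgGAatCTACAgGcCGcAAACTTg
AT1G65510: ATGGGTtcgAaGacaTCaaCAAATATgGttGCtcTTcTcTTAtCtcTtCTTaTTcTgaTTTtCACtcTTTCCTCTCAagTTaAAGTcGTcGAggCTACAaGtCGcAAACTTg
AT1G65510 is longer, with 112 bases against 109 in each of the other 3, which align to each other without a gap. Despite this likeness, no stretch of 31 bases is shared between the transcripts of any 2 members. The deposited counts of all 7 were whole numbers in both libraries, so they show no sign of reads divided with another gene.

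The block was low in the wild type and higher in the C3A line at every member. Together the 7 genes drew 919 counts in the C3A library, or 76.6 CPM, that is, of every 1000000 counts (95% counting interval 71.7 to 81.7), against 122 counts in the wild type library, or 10.2 CPM (8.49 to 12.2). The ratio of these shares was 7.49 (6.20 to 9.13). With 1 library per genotype there is no replicate check, and every interval here covers counting error alone, as reads that carry no molecular identifiers may be copies of a single molecule. In a whole rosette, a change in the number of cells that express a gene and a change in RNA per cell cannot be told apart.

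FPKM, the count scaled to gene length and library size, allows levels to be compared between genes, and the ranges given with it are exact Poisson intervals of the counts at 95%. AT1G65486 was the highest member in the C3A library, at 58.0 FPKM from 239 counts (50.9 to 65.8), against 5.10 FPKM from 22 counts in the wild type library (3.20 to 7.72). Its FPKM ratio was 11.4, with an exact conditional counting interval of 7.34 to 18.5. The 2 libraries were far apart for this gene, and its C3A level lay above 89.4% of the genes compared.

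AT1G65500, which shares 67.4% of its protein with AT1G65486, had a similar ratio at a lower level. It stood at 15.4 FPKM from 137 counts in the C3A library (13.0 to 18.3), against 1.13 FPKM from 10 counts in the wild type library (0.54 to 2.08). The ratio was 13.7 (7.21 to 29.1). The interval of the AT1G65486 ratio lies within that of the AT1G65500 ratio.

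AT1G65490 and AT1G65510 were the members best expressed in the wild type, and they had the smallest ratios. AT1G65490 stood at 32.1 FPKM from 174 counts in the C3A library (27.5 to 37.2), against 8.40 FPKM from 47 counts in the wild type library (6.17 to 11.2). AT1G65510 stood at 25.6 FPKM from 148 counts in the C3A library (21.6 to 30.1), against 7.41 FPKM from 42 counts in the wild type library (5.34 to 10.02). Their ratios were 3.82 (2.75 to 5.39) and 3.45 (2.44 to 4.99). Both intervals lie below those of AT1G65486 and AT1G65500, so within these libraries the core genes did not differ by a common factor. AT1G65490 is closer in protein sequence to AT1G65486 and AT1G65500 than to AT1G65510, so the ratios did not follow the order of identity.

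AT1G65484, the diverged relative of the core, was barely detected in the wild type. It stood at 14.8 FPKM from 74 counts in the C3A library (11.6 to 18.6), against 0.13 FPKM from 1 count in the wild type library (up to 0.72). The FPKM ratio of 114 (19.9 to 4566) rests on that single count. It also holds a difference in the deposited gene length, which was 441.35 bases in the C3A table and 646 bases in the wild type table. Without the length, the ratio of CPM values was 73.6 (12.8 to 2946).

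AT1G65481 and AT1G65483, the divergent genes with no detected relative, were not listed in the wild type table. AT1G65481 stood at 4.35 FPKM from 51 counts in the C3A library (3.24 to 5.72), and AT1G65483 at 4.95 FPKM from 96 counts (4.01 to 6.04). A wild type count of 0 was given a floor of 3 counts, which would be 0.26 and 0.16 FPKM for these genes. At that floor, the CPM ratio would be 16.9 for AT1G65481 and 31.8 for AT1G65483. These values are not interval limits, since the counting error of the C3A library is left out. AT1G65481 and AT1G65483 were the members with the lowest C3A levels in the block.

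**Figure D2:**
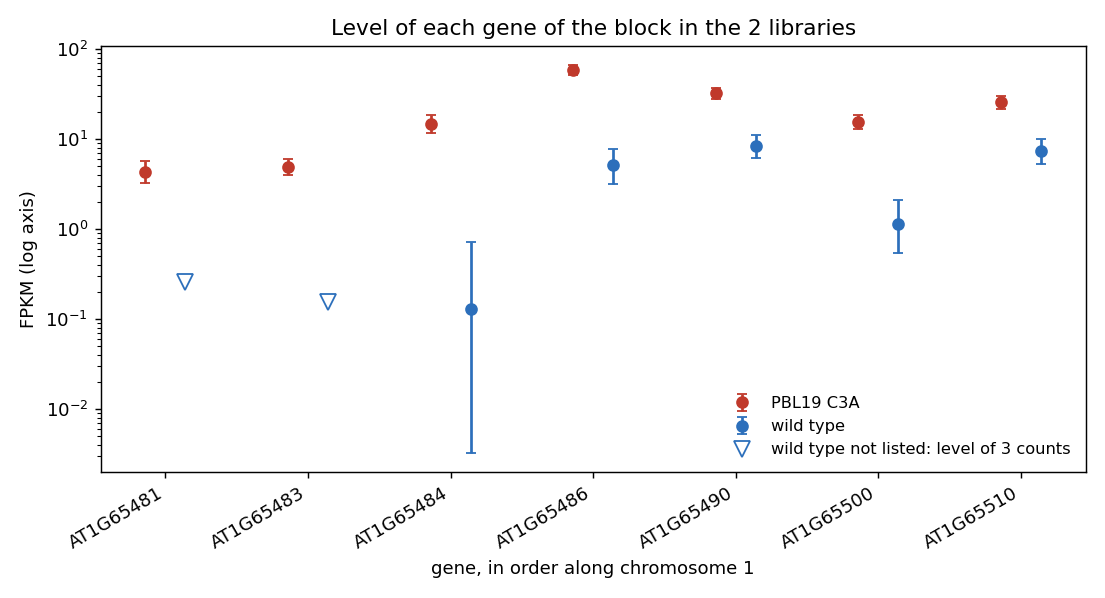
FPKM (log axis) of each member in the PBL19 C3A library (red) and the wild type library (blue), 1 library each, with exact Poisson 95% intervals of the counts as bars. Open triangles give the level that 3 counts would have for the 2 genes not listed in the wild type table. C3A levels run from 4.35 to 58.0 FPKM, and each lies above the wild type interval of its gene.

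The order of the members differed between the libraries. In the C3A library AT1G65486 was highest, followed by AT1G65490 and AT1G65510, then AT1G65500 and AT1G65484, then AT1G65483 and AT1G65481. Within each of those 3 following sets the counting intervals overlap, and between successive sets they do not. In the wild type library AT1G65490, AT1G65510 and AT1G65486 had overlapping intervals and lay above AT1G65500, whose interval overlaps that of AT1G65484. Listed members differed 13.3-fold from highest to lowest in the C3A library, over 7 genes, and 64.6-fold in the wild type library, over 5. The wild type figure rests on the 1 count of AT1G65484.

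The same shift shows in how the counts of the block were divided. AT1G65490 held 18.9% of them in the C3A library (exact binomial interval 16.4% to 21.6%), against 38.5% in the wild type library (29.9% to 47.8%). AT1G65510 held 16.1% in the C3A library (13.8% to 18.6%), against 34.4% in the wild type library (26.1% to 43.6%). AT1G65486 held 26.0% in the C3A library (23.2% to 29.0%), against 18.0% in the wild type library (11.7% to 26.0%), and these intervals overlap. AT1G65481, AT1G65483 and AT1G65484 held 5.55%, 10.4% and 8.05% in the C3A library, against 0%, 0% and 0.82% in the wild type library. The 0 counts of the first and second of these allow a share of up to 2.98% each.

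**Figure D3:**
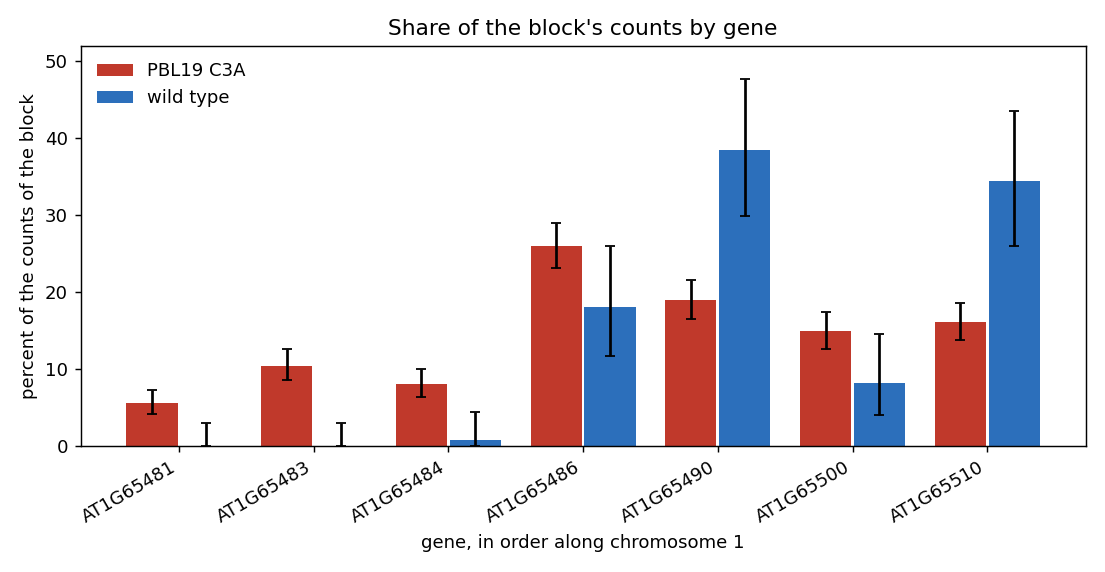
Percent of the counts of the block (919 in the PBL19 C3A library, red, and 122 in the wild type library, blue) taken by each member, with exact binomial 95% intervals as bars. AT1G65490 and AT1G65510 take smaller shares in the C3A library, at 18.9% and 16.1%, than in the wild type library, at 38.5% and 34.4%.

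On the scale used for all genes (log2 of FPKM + 1 in the C3A library, minus the same in the wild type library), all 7 members were at least 2-fold higher and none was lower. Across the 19527 genes that reached 1 FPKM in at least 1 library, 7.89% were at least 2-fold higher. Since the members were chosen from this contrast, nothing is read from that comparison. Member log2 ratios ran from 1.66 for AT1G65510 to 3.81 for AT1G65484, with a median of 2.57, or 2.36 with the 2 genes unlisted in the wild type set to 3 counts. The median of all genes compared was 0.14. Across all genes 1541 were higher and 557 lower by this measure, while 1198 were higher and 773 lower once the median ratio was set to 1. All 7 members stayed at least 2-fold higher with that scaling.

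**Figure D4:**
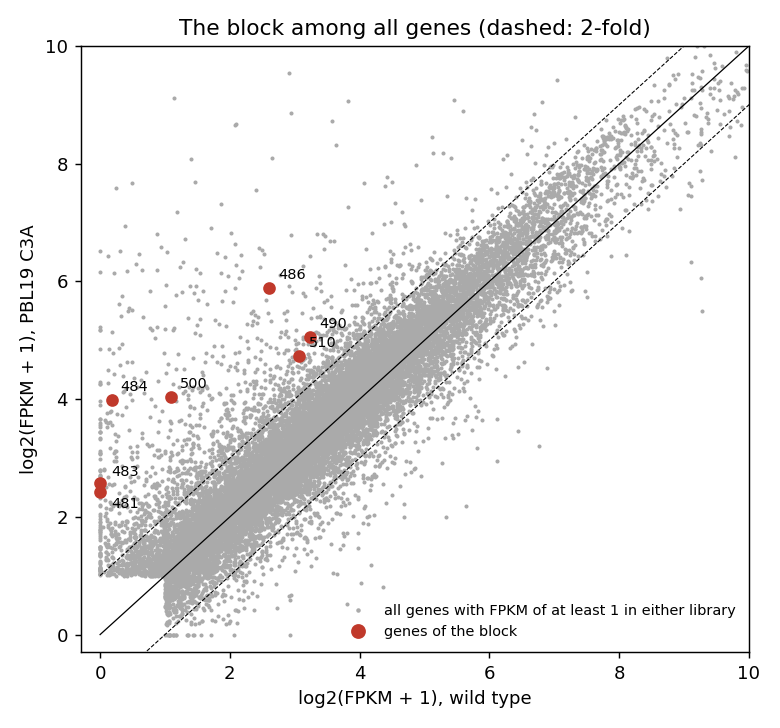
Level of each gene in the PBL19 C3A library (vertical) and the wild type library (horizontal), as log2(FPKM + 1), for genes that reached 1 FPKM in at least 1 library; axes end at 10, and a few more abundant genes lie beyond. Dashed lines mark 2-fold. The 7 members (red, named by their last 3 digits) lie above the upper dashed line, with log2 ratios of 1.66 to 3.81.

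Other small genes were counted on the same scale, as a description. Of 998 genes compared that encode at most 100 residues, 149 or 14.9% were at least 2-fold higher and 40 or 4.01% at least 2-fold lower. Of the 495 among them that RefSeq calls uncharacterized, 90 or 18.2% were at least 2-fold higher and 23 or 4.65% at least 2-fold lower. Of all genes compared, 2.85% were at least 2-fold lower. These counts include the 7 members and describe these libraries.

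Flanking genes were read on the same scale of FPKM + 1. The members were chosen as neighbours that were higher in these libraries, so where the high ratios end is partly set by that choice. Of the 10 annotated genes on each side, 11 of the 20 reached 1 FPKM in either library, and none of those was at least 2-fold higher or lower, with a median log2 ratio of 0.02 and a range of -0.89 to 0.94. FT, the flowering signal made in leaves, ends 6736 bases before the block and is its nearest protein-coding neighbour on that side. FT was at 0.30 FPKM from 3 counts in the C3A library and was not listed in the wild type table, too few counts for a comparison. The next gene listed on that side, FAS1, a subunit of chromatin assembly factor 1, stood at 3.29 FPKM in the C3A library and 3.14 FPKM in the wild type library. The RNA gene AT1G08757, between FT and the block, was not listed in either table.

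On the far side, ECI1, an enoyl-CoA isomerase, stood at 16.7 FPKM in the C3A library and 9.34 FPKM in the wild type library, a ratio of 1.79 (1.41 to 2.27). Next to it, and overlapping it, LETM2 stood at 25.1 FPKM in the C3A library and 20.5 FPKM in the wild type library. AT1G65541, the third gene on that side, was not listed in the C3A table and had 0.54 FPKM from 2 counts in the wild type. The low genes GLC and AT1G65570, farther out, had plain ratios past 2-fold, in opposite directions. GLC, an acyltransferase family gene 4 genes before the block, was at 1.31 FPKM from 27 counts in the C3A library and 0.20 FPKM from 4 counts in the wild type library, a ratio of 6.55 (2.28 to 25.8). The pectin lyase-like gene AT1G65570 was at 0.34 FPKM from 6 counts in the C3A library and 1.48 FPKM from 26 counts in the wild type library, a ratio of 0.23 (0.077 to 0.57). Neither was counted as 2-fold different on the FPKM + 1 scale, but both were with a pseudocount of 0.1 and with CPM + 1.

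**Figure D5:**
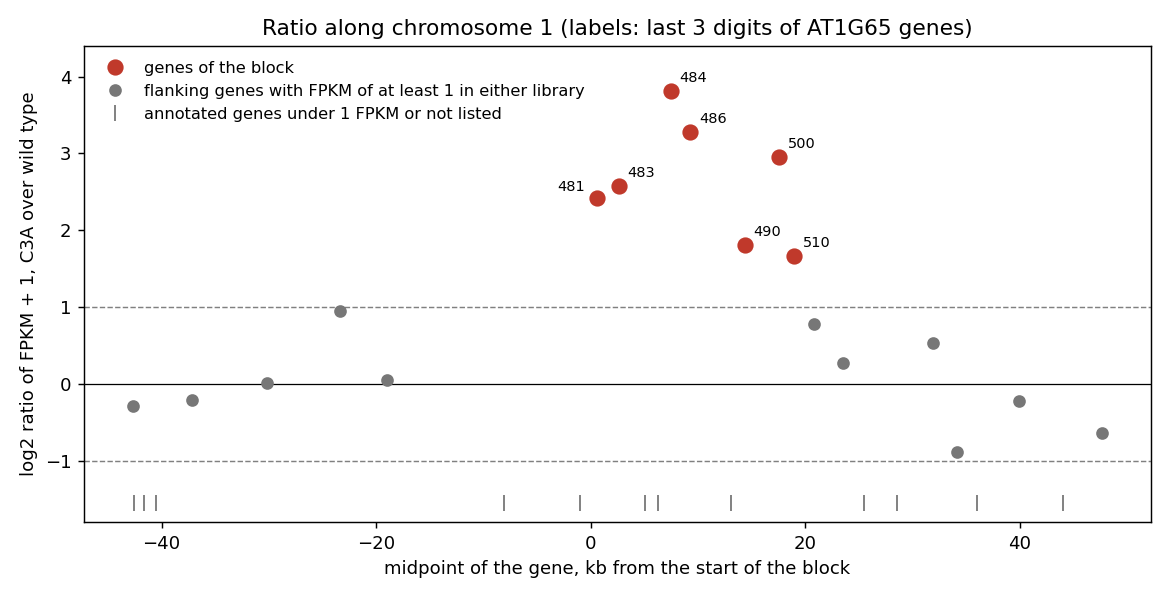
Log2 ratio of FPKM + 1 (C3A divided by wild type) against the distance of each gene's midpoint from the start of the block in kb, for the 7 members (red, named by their last 3 digits) and the flanking genes (grey). Ticks at the bottom are annotated genes under 1 FPKM in both libraries or not listed. Members lie at 1.66 to 3.81 and the 11 flanking genes between -0.89 and 0.94, inside the dashed 2-fold lines.

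The stretch before each gene was searched for letters that defence transcription factors are known to bind. WRKY factors bind the W-box, searched as TTGACC and TTGACT, and TGA factors bind TGACG. Each was looked for on both strands of the 250 bases before the annotated 5′ end, and matches to different motifs did not overlap in these members. The promoters of AT1G65486, AT1G65490 and AT1G65500 are shown because their proteins are alike while their ratios were 11.4, 3.82 and 13.7. They lie at chr1:24349149-24349398, chr1:24354396-24354645 and chr1:24357499-24357748 (TAIR10.1, plus strand), and capitals mark the W-box letters, all on the opposite strand.
AT1G65486: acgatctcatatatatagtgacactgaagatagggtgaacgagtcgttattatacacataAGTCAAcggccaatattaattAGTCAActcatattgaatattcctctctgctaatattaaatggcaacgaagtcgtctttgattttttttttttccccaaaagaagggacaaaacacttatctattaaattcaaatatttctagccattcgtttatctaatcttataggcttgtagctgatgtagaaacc
AT1G65490: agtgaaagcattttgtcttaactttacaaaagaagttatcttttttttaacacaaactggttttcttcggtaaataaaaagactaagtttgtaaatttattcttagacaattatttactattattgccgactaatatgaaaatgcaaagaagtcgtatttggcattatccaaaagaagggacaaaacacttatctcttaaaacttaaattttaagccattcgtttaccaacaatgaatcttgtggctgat
AT1G65500: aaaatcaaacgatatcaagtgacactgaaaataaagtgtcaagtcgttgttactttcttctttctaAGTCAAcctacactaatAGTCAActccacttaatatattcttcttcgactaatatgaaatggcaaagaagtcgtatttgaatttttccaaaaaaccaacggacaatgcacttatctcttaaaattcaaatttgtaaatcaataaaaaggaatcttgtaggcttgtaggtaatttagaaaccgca
AT1G65486 and AT1G65500 each held 2 matches to TTGACT, at 190 to 185 and 169 to 164 bases before the start of AT1G65486 and at 184 to 179 and 167 to 162 bases before the start of AT1G65500. These 2 promoters were 68.6% identical in a global alignment. AT1G65490 held none of the letters, and its promoter was 55.7% identical to that of AT1G65486 and 56.9% to that of AT1G65500.

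Among the other members AT1G65481 held 1 match to TTGACT and AT1G65510 held 1 match to TTGACC. AT1G65483 and AT1G65484 held neither. The FPKM ratio was highest for AT1G65484, at 114 from 1 wild type count, and lowest for AT1G65510, at 3.45. A link between the letters and the ratios was not tested. In all, 4 of 7 members held W-box letters, against 28.4% of 27443 protein-coding reference promoters of the same length. More than 1 match was present in 2 of 7 members, AT1G65486 and AT1G65500, and in 6.18% of those promoters. The promoters of these 2 members are 68.6% identical, so the 7 are not independent, and the shares were not tested. TGACG was in none of the 7 and in 18.6% of all promoters. A match is a run of letters and not a shown binding site, and letters farther upstream were not searched.

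Relatives of the block elsewhere in the genome were few. The protein search returned AT1G22890, on another part of chromosome 1, as a partial match to AT1G65510 (56.4% identity over 39 residues, E value 4.05e-04). AT1G22890, a gene for 73 residues, stood at 44.0 FPKM from 363 counts in the C3A library and 6.34 FPKM from 52 counts in the wild type library, a ratio of 6.95 (5.18 to 9.48). The other relative, AT5G36920 on chromosome 5, matched AT1G65500 (34.2% identity over 76 residues, E value 5.72e-04) and had 3 counts in the C3A library and 1 in the wild type library. This search was added after the values of the members were known.

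RefSeq names and descriptions were searched for the peptide family names SCOOP, STMP and EWR. The only gene returned was EWR1 (AT3G13437), named for resistance to vascular wilt. This gene was not among the protein matches of the members, so it is not shown to be related to them. EWR1 was at 13.0 FPKM from 79 counts in the C3A library and 2.82 FPKM from 17 counts in the wild type library, a ratio of 4.62 (2.71 to 8.33). The fallback search for small genes described as transmembrane proteins also gave a single gene, AT1G10225, which was not listed in either table. Receptor kinases known for serine-rich endogenous peptides were read beside them, although no annotation used here names the members as their ligands. MIK2 (AT4G08850), the receptor, was at 73.0 FPKM in the C3A library and 16.9 FPKM in the wild type library. SERK4, a co-receptor with fractional counts, was at 40.9 FPKM in the C3A library and 9.16 FPKM in the wild type library, and BAK1, a co-receptor that overlaps AT4G33420, was at 33.9 FPKM in the C3A library and 20.7 FPKM in the wild type library. On the FPKM + 1 scale MIK2 and SERK4 were at least 2-fold higher, at log2 ratios of 2.05 and 2.05, and BAK1 was at 0.68.

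Over the 2 libraries, the genes outside the block with levels nearest to those of AT1G65486 were AT1G66880, EDS16 and ANK. Distance was taken over log2(FPKM + 1) in both libraries, and was 0.21 for AT1G66880, 0.28 for EDS16 and 0.31 for ANK. AT1G66880, a protein kinase superfamily gene with fractional counts, was at 50.2 FPKM in the C3A library and 4.87 FPKM in the wild type library. EDS16, the isochorismate synthase also called ICS1, was at 68.0 FPKM in the C3A library and 5.85 FPKM in the wild type library. ANK, an ankyrin protein gene, was at 59.97 FPKM in the C3A library and 6.55 FPKM in the wild type library. With 2 points per gene this is a likeness of levels only.

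As a check of the labels, PBL19 was at 466 FPKM in the C3A library and 6.68 FPKM in the wild type library, though the tables do not tell transgene reads from native ones. The tissue label was read against fixed marker genes. The 5 rosette leaf markers summed to 12248 FPKM in the C3A library and 21223 FPKM in the wild type library, with none at 0. The 5 root markers summed to 27.3 FPKM in the C3A library and 48.9 FPKM in the wild type library, with none at 0. The 4 flower markers summed to 0.46 FPKM in the C3A library, with 1 at 0, and 0.45 FPKM in the wild type library, with 2 at 0. The sums of leaf and root markers were thus lower in the C3A library while the block was higher, and their part in the result was not tested.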

How the data were processed

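The sources used here give neither the quantification tool nor whether strand was used in counting. Reads were trimmed with Trimmomatic 0.36 and aligned with HISAT to TAIR10, per the submitters' processing notes, and RNA was sequenced as paired-end reads, per the labels' protocols. Each deposited table gives, per the file headers, the length of a gene, its expected count (an estimated count of fragments) and its FPKM, which the authors scaled by length and library size. The deposited FPKM of the members listed differed by -0.43% to 7.98% from the count divided by length and by total counts. Both tables list only genes above 0, and an unlisted gene was taken as 0. Of 23147 identifiers 22970, and all 7 members, matched the RefSeq annotation of TAIR10.1, whose transcript lengths equalled the deposited length for all 12080 wild type and 12258 C3A genes with 1 transcript (tolerance 0.01). Positions and sequences come from RefSeq TAIR10.1, not from the tables.

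Members were chosen, and lists and searches written, with earlier results of these data known. With 1 library each, the genotypes could not be tested against each other. Calls used log2(FPKM + 1), which understates differences of low genes, for genes that reached 1 FPKM in at least 1 library. Fold values of single genes are plain FPKM ratios with Clopper-Pearson 95% intervals from rounded counts, and a gene at 0 was given a floor of 3 counts per library. Neighbours were the 10 annotated genes on each side. The naming rule gives the members, the 3 nearest genes on each side, flanking genes past 2-fold, up to 4 family genes, 3 receptor genes, PBL19 and the 3 genes nearest in level. GLC and AT1G65570 fall outside it and were named after their values were seen.

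The calculations used python 3.11.15, numpy 2.4.6, pandas 2.3.3, scipy 1.17.1, biopython 1.88, blastp 2.17.0, mafft 7.526 and matplotlib 3.10.9. R 4.3.3 with edgeR 4.0.16 gave TMM factors for an alternative scaling only. Calls and intervals were also run on counts simulated with Poisson error alone, for genes listed in both libraries. Members unlisted in the wild type and variation between plants were not covered.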

Additional observations from a re-analysis of the deposited data

How the results depend on the processing

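All 7 members stayed at least 2-fold higher under 8 of the 9 alternatives. With only genes of at least 5 FPKM in either library compared, the count was 5, since AT1G65481 and AT1G65483 lie below that level and were not compared. The alternatives were other scalings (median ratio, TMM, without the 100 most abundant genes), CPM without length, another pseudocount, other filters, and leaving out overlapping or fractionally counted genes. No member overlaps another gene or was fractionally counted, so leaving out such genes could not change the count. Dropping the filter could not change it either. The median log2 ratio of the members ranged from 2.44 to 3.66. With a pseudocount of 0.1, the log2 ratio was 5.48 for AT1G65481, 5.66 for AT1G65483, 6.02 for AT1G65484 and 3.66 for AT1G65500, since low wild type values weigh more. The same pseudocount gave 911 genes at least 2-fold lower, in place of 557, and 2067 at least 2-fold higher, in place of 1541. With CPM without length, again with 1 added to each value, the log2 ratio was 3.17 for AT1G65483 and 2.73 for AT1G65484. The plain CPM ratio of AT1G65484 was 73.6, so the added 1 also lowers its log2 ratio. Of the flanking genes, 1 (GLC) became at least 2-fold higher and 1 (AT1G65570) at least 2-fold lower with either of these settings. Their log2 ratios were 2.23 and -1.84 with the pseudocount of 0.1, and 1.28 and -1.08 with CPM + 1. The share of higher genes among all 2-fold differences was 73.5% with the values as deposited and 60.8% with the median ratio set to 1.

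No paired analysis was possible because each genotype has 1 library, and leaving out a replicate was not possible for the same reason. Depth limits the wild type values most, since 122 counts cover the block there and AT1G65484 rests on 1.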

Other observations

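The deposited gene lengths hold a trace of transcript use. For AT1G65484, AT1G65486, AT1G65490 and AT1G65510, which have several annotated transcripts, the length differed between the libraries. Over all genes with several transcripts, the length lay within the range of the reference transcripts for 10138 of 10139 in the C3A library. In the wild type library this held for 10070 of 10071. If the deposited length is a mean weighted by transcript abundance, which no source used here states, the length of AT1G65484 would put 34.2% on its longer transcript of 646 bases and 65.8% on its shorter one of 335 bases in the C3A library. Its wild type length equals the longer transcript, from 1 count. AT1G65510 would have 5.98% on its second transcript in the C3A library, from 148 counts, and 0% in the wild type library, from 42 counts. A difference in transcript use was not tested. AT1G65483, with transcripts of 1609 and 655 bases, would use only the longer one in the C3A library.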
